A study of Homo sapiens with 16 samples.

Results

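The gel-forming mucin cluster of chromosome 11 holds MUC6, MUC2, MUC5AC and MUC5B, 4 of the 19974 protein-coding genes on chromosomes 1 to 22 and X of the RefSeq annotation of GRCh38. Peaks were collected from 12 deposited peak lists in the span of each gene with 10 kb on each side, and across the whole cluster from 10 kb before MUC6 to 10 kb after MUC5B. The 4 genes were chosen by an earlier result of these data, the loss of SMAD3 peaks at MUC6, as the cluster around that gene, so all values of MUC6 and all SMAD3 values of the 4 genes are given as a description without a test. Tests are given for MUC2, MUC5AC and MUC5B in the acetylation marks. Earlier results of these libraries were known when the genes were chosen, so these p-values are not independent evidence for the choice. They describe the spread of the libraries, with each SE drawn in part from the spread of all genes tested (limma).

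H69 cells are human cholangiocytes, the lining cells of bile ducts, transformed with a viral oncogene, and every library came from this 1 line. In every group the cells were H69, and chromatin was crosslinked for 10 min in 1% formaldehyde 16 h after addition of vehicle or of recombinant human TGF-beta at 10 ng/ml. Chromatin was immunoprecipitated and sequenced (ChIP-seq) with antibodies to SMAD3, a transcription factor that is phosphorylated and moves to the nucleus in response to TGF-beta, and to H3K27ac and H3K9ac, acetylation marks of active enhancers and promoters. For each of the 3 targets there were 2 libraries per treatment (replicates 4 and 5 of SMAD3, replicates 1 and 2 of the marks), and the labels do not say whether these came from separate cultures. If they did not, the p-values measure technical spread alone.

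Gel-forming mucins are very large secreted glycoproteins whose cysteine-rich ends link them into polymers and whose long serine- and threonine-rich tandem repeats carry dense O-linked sugars. MUC6 is the mucin of gastric mucous neck and pyloric glands and of bile duct and gallbladder glands, MUC5AC that of the gastric surface and airway goblet cells, MUC2 that of intestinal goblet cells, and MUC5B that of airway submucosal glands, salivary glands and gallbladder. In the genome MUC6 is transcribed towards lower coordinates and the other 3 genes towards higher ones. Short reads can be hard to place in such tandem repeats, and peak lists do not show where that happened.

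On GRCh38, MUC6 (gene ID 4588) spans chr11:1012823-1036718, MUC2 (4583) chr11:1074874-1110508, MUC5AC (4586) chr11:1157953-1201138 and MUC5B (727897) chr11:1223066-1262172. The annotation used here gives neither exons nor untranslated regions, so a peak is placed inside or outside a gene span only. The gap between MUC6 and MUC2 is 38155 bp and holds LOC124902605 (chr11:1049692-1058344, annotated as protein-coding), the long non-coding RNA gene LINC02688 (chr11:1049880-1055764) and the long non-coding RNA gene LOC107987157 (chr11:1060332-1073434). The gaps between MUC2 and MUC5AC (47444 bp) and between MUC5AC and MUC5B (21927 bp) hold no annotated gene, and MUC5B-AS1 and MIR6744 lie inside MUC5B.

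RefSeq promoter sequences, 250 bases before to 50 bases after a start, were at hand for LOC124902605, LOC107987157, MUC2 and MUC5B-AS1 of the cluster. Printed here are those of MUC2 and LOC107987157, which lie beside each other and differ in whether peaks were called on them. They are shown 5′ to 3′ on the strand of each gene. Capitals mark matches to CAGAC or its reverse complement GTCTG, the short letters that SMAD3 is known to bind, and to TGANTCA on either strand, the letters of AP-1 factors.
MUC2 (chr11:1074624-1074923, plus strand): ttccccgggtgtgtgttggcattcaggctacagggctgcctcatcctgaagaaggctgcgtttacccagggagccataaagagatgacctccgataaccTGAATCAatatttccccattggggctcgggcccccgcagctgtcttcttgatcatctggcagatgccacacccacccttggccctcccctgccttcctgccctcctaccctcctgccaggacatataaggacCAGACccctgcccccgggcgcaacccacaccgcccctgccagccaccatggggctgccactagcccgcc
LOC107987157 (chr11:1073385-1073684, minus strand): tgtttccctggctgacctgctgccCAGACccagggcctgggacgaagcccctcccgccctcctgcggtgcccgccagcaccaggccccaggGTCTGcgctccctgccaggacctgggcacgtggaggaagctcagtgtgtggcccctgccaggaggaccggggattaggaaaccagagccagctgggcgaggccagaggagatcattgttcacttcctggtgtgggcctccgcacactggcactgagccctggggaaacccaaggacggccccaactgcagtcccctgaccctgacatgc
In the MUC2 promoter TGAATCA began at base 100 and CAGAC at base 232, counted from 1 at the 5′ end. In the LOC107987157 promoter CAGAC began at base 25 and GTCTG at base 92. Of 35116 promoters of the same length, 45.3% held CAGAC on either strand and 7.71% held TGANTCA. The palindrome GTCTAGAC, a longer SMAD-binding element, was in 0.202% of promoters and in neither of these. The promoter printed for MUC2 held no peak in any of the 12 libraries, and the nearest peak lay 461 bp away. The LOC107987157 promoter overlapped a peak in all 8 acetylation libraries and in no SMAD3 library. The promoters of LOC124902605 and MUC5B-AS1, not printed, also held CAGAC on either strand, and no library had a peak on them.

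Across the 269 kb of the cluster the 12 libraries held 146 peaks, which fell into 7 stretches when peaks within 1 kb of each other were joined. From low to high coordinates these were a stretch inside the body of MUC6 (chr11:1016717-1018006), a stretch of 10292 bp across the higher end of MUC6, where the gene starts (chr11:1032949-1043240), a stretch within LINC02688 and LOC124902605 (chr11:1050643-1052352), and a stretch at the far end of LOC107987157 (chr11:1060201-1061327). The others were at the start of LOC107987157, 711 bp before MUC2 (chr11:1072374-1074163), 3337 bp before MUC5AC (chr11:1150089-1154616), and across the last bases of MUC5B and beyond (chr11:1261695-1263487). Windows of 10 kb around the 4 genes held 132 of the 146 peaks, and the remaining 14 lay between MUC6 and MUC2. No peak touched the span of MUC2 or of MUC5AC in any library, while 23 peaks touched MUC6 and 7 touched MUC5B.

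**Figure D1:**
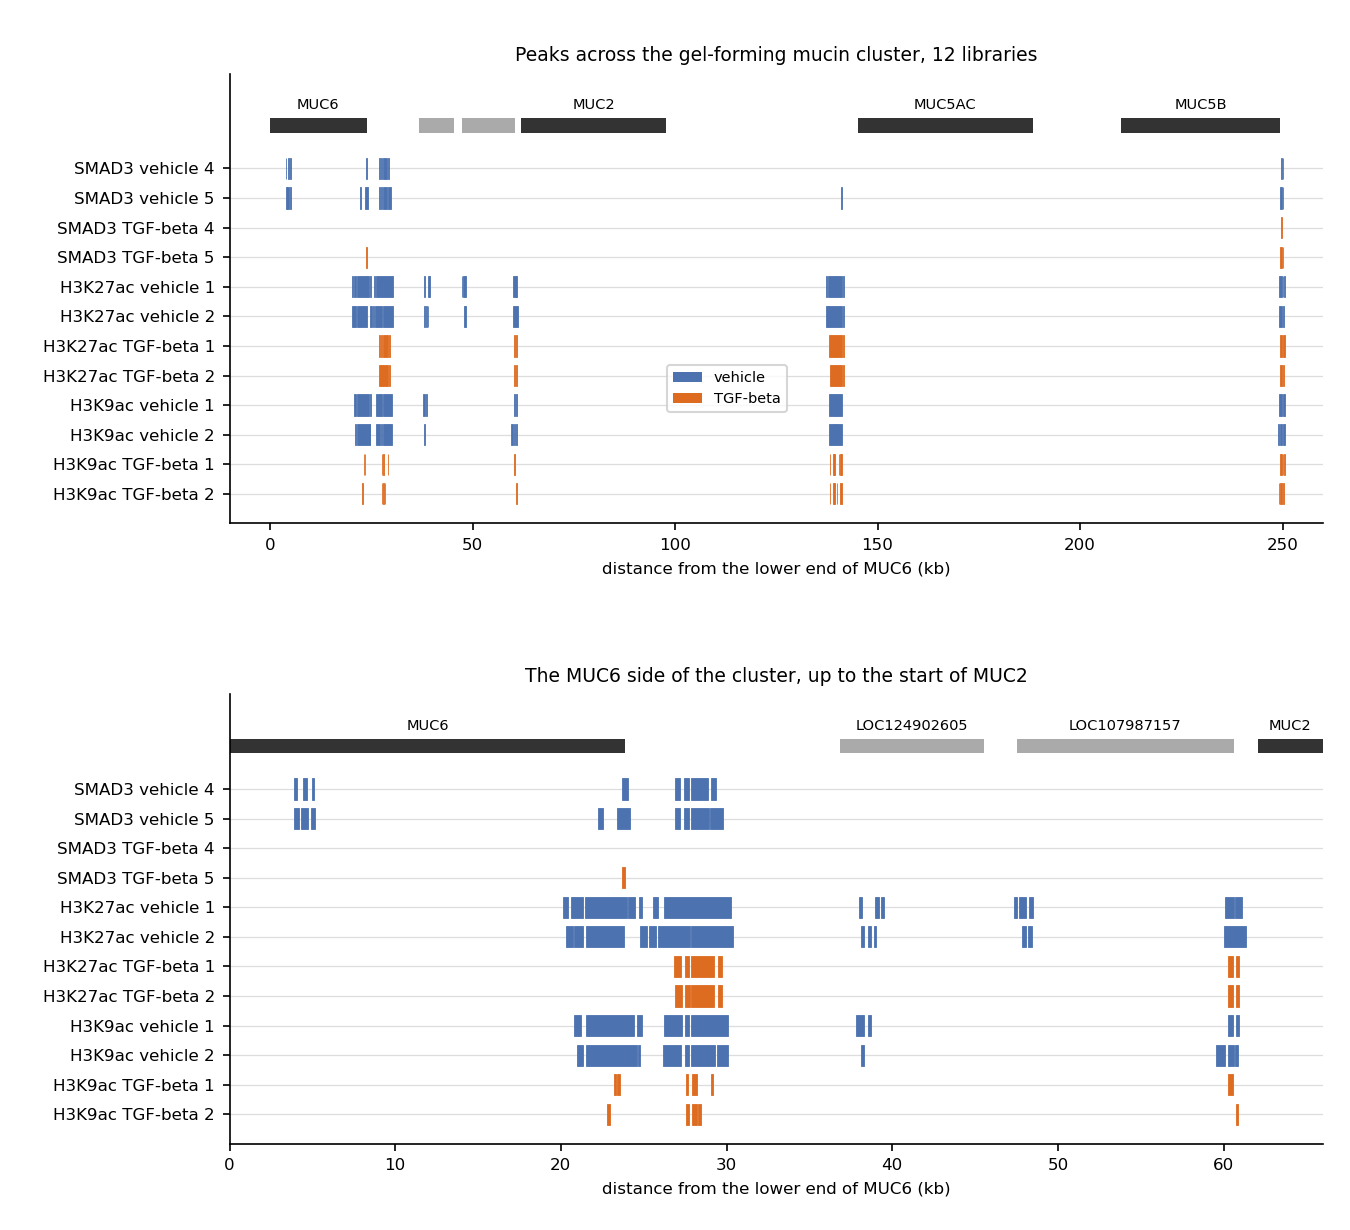
Peaks in the cluster in each of the 12 libraries (rows) against the distance from the lower end of MUC6 in kb, for the whole cluster (top) and up to the start of MUC2 (bottom); dark bars are the 4 mucin genes and grey bars LOC124902605 and LOC107987157. The peaks fall into 7 stretches, and the SMAD3 rows after TGF-beta keep 1 and 3 of the 10 and 12 peaks seen with vehicle.

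Peak length over the whole cluster was shorter in both TGF-beta libraries than in both vehicle libraries for each target, by the largest ratio in SMAD3. SMAD3 peaks covered 3.25 and 5.29 kb with vehicle (10 and 12 peaks) and 0.237 and 0.712 kb with TGF-beta (1 and 3 peaks), 11.1% of the vehicle mean. Over the genome the length inside SMAD3 peaks moved the other way, to 153% of vehicle. H3K27ac peaks covered 16.1 and 16.2 kb with vehicle and 7.02 and 6.65 kb with TGF-beta, 42.3% of vehicle against 113% over the genome. H3K9ac peaks covered 12.9 and 12.5 kb with vehicle and 3.30 and 3.49 kb with TGF-beta, 26.7% of vehicle against 93.9% over the genome. The number of H3K9ac peaks was nearly level, 14 and 16 peaks with vehicle against 15 and 13 with TGF-beta, but the median peak in the cluster shortened from 562 and 525 bp to 176 and 224 bp. H3K9ac thus stayed in 4 of the 5 stretches it had with vehicle, in shorter pieces, whereas H3K27ac went from 22 and 18 peaks in 6 stretches to 11 and 11 peaks in 4. In bulk chromatin, fewer cells carrying a mark and less of it per cell cannot be told apart. For 2 libraries per treatment the smallest two-sided p of an exact permutation test is 0.333, so these lengths carry no test of their own.

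Set per length of window, MUC6 was the most covered of the 4 genes with vehicle, and its lead over MUC5AC narrowed in H3K27ac and was gone in H3K9ac with TGF-beta. With vehicle, H3K27ac peaks covered 19.3 to 19.6% of the MUC6 window, 6.52 to 6.75% of the MUC5AC window, 1.70 to 2.42% of the MUC2 window and 1.73 to 1.88% of the MUC5B window, and the ranges of the last 2 overlap. With TGF-beta, H3K27ac covered 5.26 to 5.28% at MUC6 and 4.98 to 5.21% at MUC5AC, followed by MUC5B at 1.22 to 1.497% and MUC2 at 0.845 to 0.951%. H3K9ac had the order MUC6 (16.0 to 16.4%), MUC5AC (4.52 to 4.80%), MUC5B (2.41 to 2.47%) and MUC2 (0.954 to 1.93%) with vehicle. With TGF-beta the H3K9ac ranges of MUC5AC (1.88 to 2.23%), MUC6 (1.77 to 2.10%) and MUC5B (1.52 to 1.93%) overlapped, and MUC2 was lowest at 0.288 to 0.525%. SMAD3 covered 6.42 to 10.3% of the MUC6 window and 0.727 to 1.06% of the MUC5B window with vehicle. At MUC2 SMAD3 was listed at 0 in all 4 libraries, and at MUC5AC only 1 vehicle library had a peak.

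**Figure D2:**
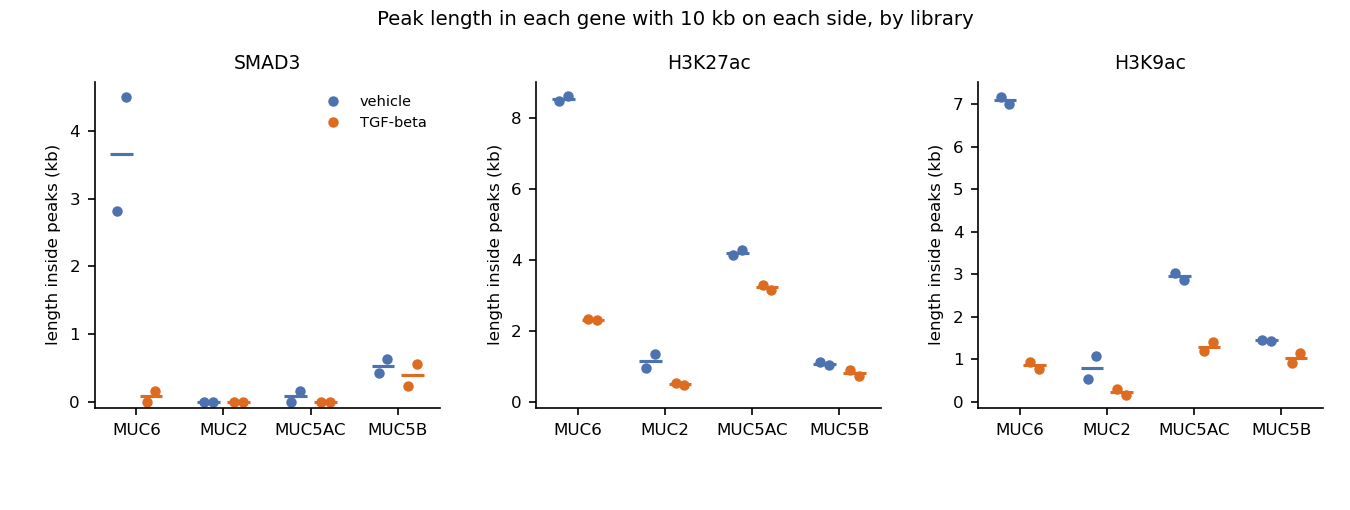
Length inside peaks in kb in each gene span with 10 kb on each side, for SMAD3, H3K27ac and H3K9ac; points are libraries and lines are means of 2 libraries. Both TGF-beta libraries lie below both vehicle libraries at all 4 genes in both acetylation marks, and MUC6 has the widest gap in all 3 targets.

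With vehicle MUC6 held most of the peak length of the cluster, and it had the largest change of the 4 genes in each target. With TGF-beta the MUC5AC window held more peak length than the MUC6 window in both marks. SMAD3 peaks covered 2819 and 4507 bp of its window with vehicle and 0 and 161 bp with TGF-beta, a mean of 3.66 ± 1.19 kb (SD, n = 2) against 0.0805 ± 0.114 kb. The log2 change was -3.13 ± 0.18 (SE), on the scale of log2(bp + 500) with each library centred on the median gene, and it was the lowest of 12508 genes with enough SMAD3 peak length (rank 3 with the gene span alone or with a pseudocount of 100 bp in place of 500). Only 1 SMAD3 peak was left, in TGF-beta replicate 5, inside MUC6 at its higher end. H3K27ac covered 8475 and 8617 bp with vehicle and 2317 and 2310 bp with TGF-beta, and H3K9ac covered 7179 and 7008 bp and then 921 and 778 bp. The acetylation libraries were thus tight within each treatment and far apart between treatments. The log2 change was -1.77 ± 0.073 in H3K27ac (rank 14 from the lowest of 13994 genes) and -2.40 ± 0.10 in H3K9ac (rank 1 of 14605). These ranks moved with the setting, from 2 with the gene span alone to 34 with a pseudocount of 100 bp in H3K27ac, and in H3K9ac to 2 with the gene span alone or without TGF-beta replicate 1 and to 11 with a pseudocount of 100 bp. Both TGF-beta libraries of SMAD3 lay below both vehicle libraries at MUC6, as they did in 1.81% of all genes tested. Of all genes tested, 1.41% were called lower in SMAD3, 11.4% in H3K27ac and 5.28% in H3K9ac at an adjusted p under 0.05. Without TGF-beta replicate 2, the only library of each mark from another sequencing lane (lane 8 against lane 7), MUC6 stood at -1.78 in H3K27ac and -2.27 in H3K9ac.

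The stretch across the higher end of MUC6 carried all of this acetylation and most of the SMAD3 length, and was divided by the gene end into an inside and an outer part. Inside MUC6, H3K27ac covered 3454 and 3263 bp with vehicle and 0 bp in both TGF-beta libraries, and H3K9ac covered 2802 and 2697 bp and then 312 and 168 bp. Beyond the gene end H3K27ac kept 44.6% of its vehicle length (5021 and 5354 bp, then 2317 and 2310 bp), while H3K9ac kept 14.03% (4377 and 4311 bp, then 609 and 610 bp). H3K27ac peaks were thus absent over the start of the gene and shorter outside it, and H3K9ac was low on both sides. The vehicle H3K27ac peaks beyond the end were among the strongest of their libraries: the top peak ranked at percentile 99.0 by score in replicate 1, where it was 4063 bp long, and at percentile 97.7 in replicate 2. The top H3K9ac peak there ranked at percentiles 78.6 and 75.0 in the vehicle libraries.

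SMAD3 peaks with vehicle sat in 3 places at MUC6. At the gene end, 1 peak crossed it in each vehicle library (chr11:1036498-1036861 and chr11:1036227-1037002), with a further peak inside the gene in replicate 5. Beyond it, peaks between chr11:1039708-1042621 covered 1927 and 2481 bp and none was called with TGF-beta. Inside the gene body, 3 peaks in each vehicle library covered 528 and 940 bp, and this stretch had no acetylation peak in any library of either mark. Beyond the MUC6 end, the acetylation that stayed with TGF-beta lay mostly where SMAD3 peaks had been called with vehicle. Of the H3K27ac length left beyond the MUC6 end, 93.0 and 90.1% lay inside the vehicle SMAD3 peaks, against 54.6 and 46.9% of the H3K27ac length with vehicle, and all of the H3K9ac length left there (100% in both libraries) did so. Acetylation of those former SMAD3 peaks fell as well. H3K27ac covered 97.6 and 89.5% of their length with vehicle and 76.7 and 74.1% with TGF-beta. H3K9ac covered 97.7 and 91.8% and then 21.7 and 21.7%. These SMAD3 peaks were part of what chose MUC6, and the same shares over the genome were not computed, so this overlap is a description. Across the whole cluster, 7 of 10 and 9 of 12 vehicle SMAD3 peaks touched an H3K27ac peak of vehicle replicate 1, against 91.5 and 85.8% of all SMAD3 peaks of these libraries over the genome. Those in the cluster that did not were the 3 in the MUC6 body in each library.

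**Figure D3:**
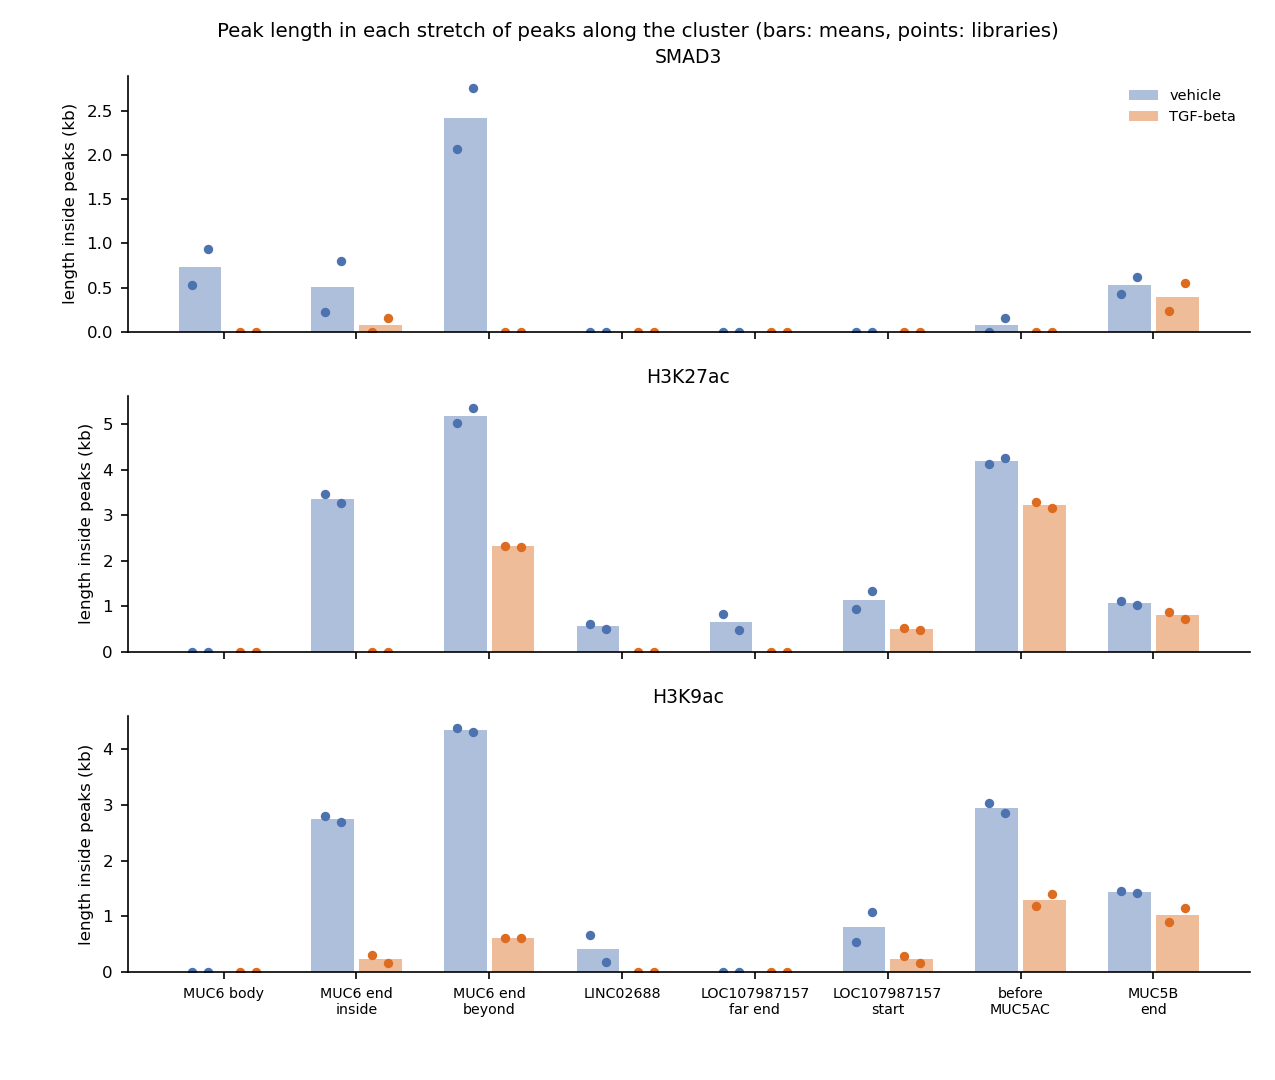
Length inside peaks in kb in each stretch of the cluster, in order along the chromosome, with the MUC6 end stretch divided at the gene end; bars are means of 2 libraries and points are libraries. With TGF-beta H3K27ac is at 0 inside MUC6 and in the stretches at LINC02688 and at the far end of LOC107987157, and it keeps 76.8% of its vehicle length before MUC5AC and 75.3% at the MUC5B end.

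In 2 stretches between MUC6 and MUC2, at LINC02688 and LOC124902605 and at the far end of LOC107987157, weak acetylation peaks were called with vehicle and none with TGF-beta. At LINC02688 and LOC124902605, H3K27ac covered 617 and 501 bp and H3K9ac 664 and 177 bp with vehicle. At the far end of LOC107987157, H3K27ac covered 832 and 486 bp with vehicle, and H3K9ac had no peak in any library. These peaks ranked low by score, with no top peak above percentile 44.6 of its library in either stretch. The 10 kb windows of LOC124902605 and LINC02688 reach into the stretch beyond the MUC6 end, and their larger changes are the same peaks. SMAD3 in the LOC124902605 window, for example, went to 0 bp in both TGF-beta libraries from the same 1927 and 2481 bp given for MUC6.

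MUC2 had acetylation peaks only at the stretch over the start of LOC107987157, whose nearest edge lay 711 bp from the MUC2 start. H3K27ac covered 947 and 1346 bp with vehicle and 529 and 470 bp with TGF-beta, and the groups do not overlap. The log2 change was -0.80 ± 0.11 (SE), with an adjusted p of 0.00276 by limma over 13994 genes. It was -1.63 with 25 kb on each side and -0.39 with a pseudocount of 2000 bp, and remained called in both. H3K9ac covered 531 and 1071 bp with vehicle and 292 and 160 bp with TGF-beta. Both TGF-beta libraries were lower here too, but the vehicle libraries differed about as much as the groups. MUC2 passed the filter of 500 bp in H3K9ac only through its vehicle libraries (means of 801 bp with vehicle and 226 bp with TGF-beta). It fell below the filter, and had no test, without vehicle replicate 2 or with peaks of a score of at least 5 alone. The log2 change was -0.73 ± 0.22 with an adjusted p of 0.0973 (limma) and a 95% interval of -1.25 to -0.20. This SE is drawn in part from all genes, and the SD of MUC2 about its own group means was larger, at 0.41. Leaving out vehicle replicate 1 gave -1.08 with an adjusted p of 0.00120 by limma, so the call depends on that library. The same H3K27ac and H3K9ac peaks covered 221 and 300 bp, then 161 and 149 bp, and 153 and 189 bp, then 23 and 138 bp, of the 300 bases of the LOC107987157 promoter printed above. On that promoter the groups do not overlap in either mark.

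MUC5AC had a broad acetylated stretch of 4528 bp that ended 3337 bp before its start and overlapped no annotated gene. H3K9ac covered 3031 and 2859 bp with vehicle and 1186 and 1407 bp with TGF-beta, 44.0% of vehicle. The log2 change was -0.85 ± 0.073 with an adjusted p of 8.17e-04 (limma over 14605 genes), and it stood at -0.88 (adjusted p = 0.00209, limma) without the TGF-beta library of the other lane. With peaks of a score of at least 5 alone it was -1.41 (still called), and with a pseudocount of 2000 bp -0.52. In pieces, the 2 long H3K9ac peaks of each vehicle library, up to 1683 and 1548 bp, gave way to 6 and 5 shorter ones, up to 231 and 508 bp. H3K27ac covered 4121 and 4264 bp with vehicle and 3290 and 3149 bp with TGF-beta, 76.8% of vehicle. This smaller fall had a log2 change of -0.42 ± 0.072 and an adjusted p of 0.00707 by limma. Without TGF-beta replicate 2 the H3K27ac change was -0.41 with an adjusted p of 0.0551 (limma), so within lane 7 the size stayed and the call was lost. SMAD3 had a single peak of 160 bp here, in vehicle replicate 5, at percentile 20.5 of its library by score.

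MUC5B was acetylated at its higher end, where transcription of the gene stops, and its SMAD3 peaks were the ones that stayed. SMAD3 covered 430 and 624 bp with vehicle and 237 and 551 bp with TGF-beta, overlapping groups, all of it beyond the gene end. H3K27ac covered 1112 and 1022 bp with vehicle and 885 and 721 bp with TGF-beta, and H3K9ac 1457 and 1425 bp and then 898 and 1140 bp. In both marks the groups do not overlap, with falls smaller than at MUC6. The log2 change was -0.35 ± 0.093 in H3K27ac (adjusted p = 0.0335, limma). In H3K9ac it was -0.27 ± 0.080 (adjusted p = 0.0852, limma; 95% interval -0.45 to -0.08). The H3K27ac call was lost without any of 3 libraries, vehicle replicate 1, TGF-beta replicate 1 or TGF-beta replicate 2, the last giving -0.28 with an adjusted p of 0.185 (limma).

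Counted over the 3 genes with a test, all 3 fell in H3K27ac and 1 of 3, MUC5AC, fell in H3K9ac. These counts stand against 11.4 and 5.28% of all genes called lower. Both TGF-beta libraries lay below both vehicle libraries at all 3 in each mark, which was the case for 20.9% of genes in H3K27ac and for 40.9% in H3K9ac. In H3K9ac this order of libraries was thus common among all genes. The median change of all genes tested was -0.03 in H3K27ac and 0.00 in H3K9ac after centring.

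Whether the marks changed unlike each other was asked with a treatment-by-mark term over the 8 acetylation libraries and 14470 genes. At MUC5AC H3K9ac fell by more than H3K27ac, with a difference of -0.42 ± 0.095 (SE; adjusted p = 0.0304, limma). In 7.43% of all genes this term was called, and in 5.43% with the H3K9ac change below the H3K27ac change. Leaving out any 1 of the 8 libraries kept the difference between -0.45 and -0.40 and lost the call, with adjusted p-values of 0.0581 to 0.113 (limma). With peaks of a score of at least 5 alone the difference was -0.98 (adjusted p = 0.00378, limma). At MUC2 the difference was 0.08 (95% interval -0.62 to 0.77; adjusted p = 0.916, limma) and at MUC5B 0.09 (-0.19 to 0.38; adjusted p = 0.722, limma), so these data leave room for a difference of either sign. MUC6 had a difference of -0.63 ± 0.14, given as a description. With the MUC6 span alone it was 0.95, the opposite sign, because inside the gene H3K27ac is listed at 0 in both TGF-beta libraries while H3K9ac kept 312 and 168 bp.

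**Figure D4:**
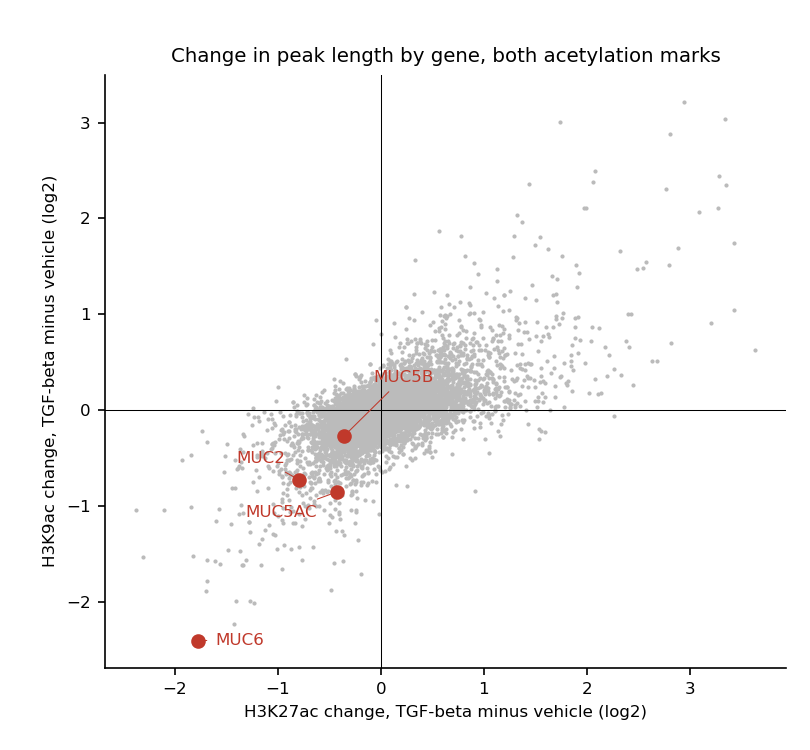
Log2 change in H3K27ac (x axis) and H3K9ac (y axis) peak length, TGF-beta minus vehicle, for 13600 genes tested in both marks (grey) and the 4 gel-forming mucins (red). All 4 lie below 0 in both marks, with MUC6 at -1.77 and -2.40 and MUC5AC further below 0 in H3K9ac (-0.85) than in H3K27ac (-0.42).

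Peaks of the 4 libraries of each target were also merged where they overlapped, and each merged region was called lost (in both vehicle libraries and no TGF-beta library), gained (the reverse) or constant (in all 4). No region of the cluster was gained in any target. SMAD3 had 12 regions, of which 7 were lost, 1 was constant and 4 had other patterns. All 7 lost SMAD3 regions were at MUC6, 3 in its body and 4 in the end stretch, and the constant region was at the MUC5B end. H3K27ac had 18 regions, of which 8 were lost and 6 constant. The lost H3K27ac regions were 3 in the MUC6 end stretch, 2 at LINC02688, 2 at the far end of LOC107987157 and 1 before MUC5AC. H3K9ac had 15 regions, of which 4 were lost, 3 in the MUC6 end stretch and 1 at LINC02688, and 7 were constant. Over the genome 0.669, 4.72 and 6.15% of merged regions were lost, 86.3, 88.0 and 94.8% were not gained, and 41.7, 41.9 and 49.8% were constant in SMAD3, H3K27ac and H3K9ac. A library counted as having a region if any base of it lay in a peak. In an alternative, its peaks had to cover the greater part of the region. The constant regions were then 1, 2 and 1 in SMAD3, H3K27ac and H3K9ac, beside 31.0, 31.1 and 40.3% over the genome. The lost ones were 6, 9 and 6, beside 0.839, 6.17 and 7.48%. The lost SMAD3 regions were part of what chose MUC6, so their count is a description.

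The genes on either side of the cluster passed no test in an acetylation mark. AP2A2, which encodes a subunit of the AP-2 clathrin adaptor and ends just before MUC6, had H3K27ac at 1486 and 1489 bp with vehicle and 1317 and 1565 bp with TGF-beta (log2 change -0.12, adjusted p = 0.396, limma). Its H3K9ac went from 1927 and 2007 bp to 1382 and 1753 bp (-0.17, adjusted p = 0.310, limma). SMAD3 in the AP2A2 window went from 910 and 1504 bp to 632 and 585 bp, but this window takes in the stretch of the MUC6 body. Within the AP2A2 span alone SMAD3 covered 325 and 383 bp with vehicle and 606 and 506 bp with TGF-beta, the opposite direction. On the other side TOLLIP, which encodes an adaptor of Toll-like receptor and interleukin-1 signalling, had an H3K27ac change of 0.09 (adjusted p = 0.385, limma) and an H3K9ac change of -0.08 (adjusted p = 0.672, limma). SMAD3 at TOLLIP was 1109 and 1154 bp with vehicle and 1147 and 1177 bp with TGF-beta (-0.28 after centring, adjusted p = 0.175, limma).

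Other genes of the mucin pathway were followed as a list of 51, covering membrane-bound and other secreted mucins, regulators of mucous secretory cells and their secreted partners, and enzymes that build mucin O-glycans. In SMAD3, 3 of the 21 tested rose and none fell, against 11.2 and 1.41% of all genes, and 7 were at an unadjusted p under 0.05 in either direction (limma). In H3K27ac, 7 of 31 rose and 5 fell, against 14.8 and 11.4% of all genes. The 7 count MUC12 and MUC17, whose windows hold the same peaks, as 2 genes. In H3K9ac, 2 of 30 rose and 3 fell, against 4.19 and 5.28%. The medians of the list were 0.01, -0.10 and -0.05 in SMAD3, H3K27ac and H3K9ac, beside -0.01, -0.03 and 0.00 over all genes, so the list as a whole lay near the other genes. In SMAD3 the number that rose was 1 without TGF-beta replicate 4 and 2 without vehicle replicate 4 or TGF-beta replicate 5. In H3K9ac the number that fell was 2 without vehicle replicate 1.

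Among the 20 regulators and partners, 4 of the 14 tested in H3K27ac fell, 2 rose and 8 did not pass. Of all genes, 11.4% were called lower and 14.8% higher in this mark. In H3K9ac 3 of 13 fell, 1 rose and 9 did not pass, against 5.28% of all genes lower and 4.19% higher. In SMAD3 2 of 9 rose and none fell, against 11.2 and 1.41% of all genes. AGR2, an endoplasmic reticulum protein needed for mucin folding, had H3K27ac at 2.06 and 2.59 kb with vehicle and 0.811 and 0.512 kb with TGF-beta (log2 change -1.37, adjusted p = 7.63e-04, limma). Its H3K9ac went from 1.17 and 0.958 kb to 0 and 0.452 kb (-1.09, adjusted p = 0.0251, limma). This H3K9ac call of AGR2 was lost with a pseudocount of 100 bp (adjusted p = 0.1298, limma), with no filter (0.0635) and without centring (0.0558), and the change was -0.69 without TGF-beta replicate 1. The related gene AGR3 fell in H3K9ac from 1.75 and 1.45 kb to 0.391 and 0 kb (-1.56, adjusted p = 0.0121, limma; 0.0788 with a pseudocount of 100 bp), and in H3K27ac its change was -0.77 (adjusted p = 0.00167, limma). In H3K9ac, AGR2 and AGR3 passed the filter of 500 bp only through their vehicle libraries. SPDEF, a transcription factor of goblet and mucous cells, fell in H3K27ac from 4.94 and 4.53 kb to 2.54 and 2.22 kb (-0.95, adjusted p = 8.71e-04, limma). BPIFB1, a secreted protein of mucous glands, was at 1.10 and 1.58 kb of H3K27ac with vehicle and listed at 0 in both TGF-beta libraries. CREB3L1, a membrane-bound transcription factor of secretory cells, fell in H3K9ac by 0.32 on the log2 scale (adjusted p = 0.0469, limma), a call lost without any single library, the change then lying between -0.36 and -0.27.

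The hepatic and endodermal factor HNF4A rose in all 3 targets. No SMAD3 peak was listed there with vehicle (0 kb in each library), and peaks covered 1.45 and 1.27 kb with TGF-beta. HNF4A H3K27ac rose from 1.52 and 1.999 kb to 4.09 and 3.35 kb (0.82, adjusted p = 0.00330, limma) and its H3K9ac from 0.857 and 0.394 kb to 2.68 and 2.61 kb (1.60, adjusted p = 0.00124, limma). GATA6, a further endodermal factor, rose in H3K27ac by 0.64 (adjusted p = 0.00242, limma). XBP1, the factor that expands the endoplasmic reticulum of secretory cells, had SMAD3 peaks of 1.499 and 2.04 kb with vehicle and 4.09 and 3.79 kb with TGF-beta (0.67, adjusted p = 0.0109, limma). With the gene span alone the XBP1 call was lost (0.27, adjusted p = 0.241, limma). Without vehicle replicate 4 or TGF-beta replicate 4 the XBP1 change was 0.60 with adjusted p-values of 0.0728 and 0.0580 (limma).

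Among the O-glycosylation enzymes, ST6GALNAC1, the sialyltransferase that makes the sialyl-Tn antigen on mucins, had the largest fall of the list. Its H3K27ac was 2.17 and 2.43 kb with vehicle and was listed at 0 in both TGF-beta libraries. GALNT enzymes attach the first sugar to serine or threonine, and the 3 enzymes of the list that rose in H3K27ac were GALNT1, GALNT6 and GALNT10. GALNT1 rose by 0.74 (adjusted p = 0.00216, limma) and GALNT6 by 0.65 (adjusted p = 0.00763, limma) in H3K27ac, GALNT10 by 0.52 in H3K27ac (adjusted p = 0.00318, limma) and by 0.61 in H3K9ac (adjusted p = 0.0104, limma), and GALNT2 by 0.85 in SMAD3 (adjusted p = 0.00338, limma). GALNT6 was at an adjusted p of 0.0503 (limma) within lane 7. The membrane mucin MUC1, the only one of 11 with a tested value in all 3 targets, passed the test in none of them (log2 changes -0.19 in SMAD3, -0.18 in H3K27ac and -0.20 in H3K9ac). MUC12 and MUC17, membrane mucins of the intestine that share the same peaks, were at 0.62 in H3K27ac (adjusted p = 0.00240, limma) and are named here after their values were seen.

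H69 libraries carried peaks at most cholangiocyte genes. Of 11 cholangiocyte markers, 7, 8 and 9 had peaks in all 4 libraries of SMAD3, H3K27ac and H3K9ac, with CFTR, the chloride channel of bile ducts, at 0 in all 12. Summed H3K27ac over this list was 91.7 to 99.3 kb with vehicle and 90.8 to 91.6 kb with TGF-beta. Of 9 markers of goblet and gastric mucous cells, TFF1, CLCA1 and FCGBP were at 0 in all 12 libraries, and 4 had H3K27ac peaks in all 4 libraries. The H3K27ac sum of this mucous list, which shares SPDEF and other members with the list above, was 9.44 to 9.64 kb with vehicle and 7.79 to 8.08 kb with TGF-beta, and its part in the mucin values was not tested. SPDEF alone accounted for more than this difference, and GKN1, a gastric surface protein, stood at 1.89 and 2.15 kb with vehicle and at 2.81 and 2.97 kb with TGF-beta. Hepatocyte markers (7 genes, ALB and TTR at 0 in all 12) summed to 8.14 to 9.81 and then 13.95 to 13.97 kb in H3K27ac. Mesenchymal and endothelial markers (7 genes, DCN at 0 in all 12) summed to 36.2 to 36.9 and then 40.9 to 42.8 kb, and leukocyte markers (5 genes) to 15.9 to 18.2 and then 14.2 to 14.3 kb. In H3K27ac, 4 of the 7 hepatocyte, 5 of the 7 mesenchymal and endothelial and 4 of the 5 leukocyte markers had peaks in all 4 libraries. Having peaks thus did not set the cholangiocyte list apart from these lists. The part of these lists in the mucin values was not tested either.

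The genes most like MUC6 over the 12 libraries were found by Pearson's r on values centred within each target, over 12316 genes with enough SMAD3 and H3K27ac peak length and windows away from the cluster. They were H6PD, an enzyme of the endoplasmic reticulum that makes NADPH (r = 0.983), SLC43A3, a purine transporter (r = 0.979), and DAGLA, diacylglycerol lipase alpha (r = 0.976). The points share their libraries and the sizes of change differ widely, since r ignores size. H6PD H3K27ac was 10.0 and 10.9 kb with vehicle and 8.19 and 7.88 kb with TGF-beta, a smaller ratio than at MUC6. DAGLA SMAD3 went from 1.92 and 2.82 kb to 0.645 and 0.832 kb, and SLC43A3 SMAD3 was 1.89 and 2.43 kb and then 2.02 and 2.04 kb before centring.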

How the data were processed

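ChIP-seq peak lists of 12 libraries were used (SMAD3, H3K27ac and H3K9ac, 2 vehicle and 2 TGF-beta libraries each), and the 4 input samples were not used. Per the labels' protocols, reads were 51 bases from both ends. Reads were processed with BWA, Picard, MACS2 and bedtools on the build hg38, per the submitters' processing notes; versions, settings and the input used as control were not given in sources used here. The authors deposited 1 peak list per library, called per library, with a score that is -log10 of the p or q value of the caller; which of these was not given in sources used here. The lowest score was 2.00 to 2.04. Scores served for ranks within a library, to pick the top peaks for equal peak numbers, and for an alternative cut at 5. The lists hold no read counts, so depth is unknown and no counting error is given. The libraries held 22451 to 92714 peaks; 7 to 66 peaks per library on sequences other than chromosomes 1 to 22 and X were left out. Per the file headers, TGF-beta replicate 2 of both marks came from lane 8, as did all SMAD3 libraries, and the remaining libraries came from lane 7.

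Each gene was given the summed length of peaks in its window (the span and 10 kb either side). It was analysed as log2(bp + 500), for genes whose mean was 500 bp or more, each library centred on its median over genes covered in all libraries of the fit, with limma 3.58.1 in R 4.3.3 over all genes and Benjamini-Hochberg adjustment at 0.05. Such fold changes understate the change of genes with little peak length. Genes and promoter sequences were from RefSeq (GRCh38.p14), and all 51 pathway genes and 39 marker entries matched by symbol. Other steps used Python 3.11.15, numpy 2.4.6, pandas 2.3.3 and matplotlib 3.10.9, and the fit was tested on simulated data.

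The members, lists, tests and joining distance of stretches were chosen with earlier results of these data known. Named genes were the 4 members, every gene in the cluster and the first on each side, at most 4 list genes per target and direction past the threshold, and the 3 genes most like MUC6. Beyond this limit, values are given for the list genes MUC1, MUC12 and MUC17, and in H3K27ac for AGR3 and GALNT10. The tests of MUC6 in the marks were planned, but are given without p since the gene was chosen for its change. Alternatives covered the window, pseudocount, filter, centring, score threshold, number of peaks, limma options, the replicate number as a block and each library left out. For merged regions they also covered the share of a region inside peaks.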

Additional observations from a re-analysis of the deposited data

Results flagged for a closer look

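The MUC5AC change in H3K9ac was below its change in H3K27ac by a tested treatment-by-mark term: the difference was -0.42 on the log2 scale (SE 0.095; adjusted p = 0.0304, limma over 14470 genes). The call was lost without any 1 of the 8 libraries (adjusted p-values of 0.0581 to 0.113, limma), with a replicate block (0.0503) and with a pseudocount of 2000 bp (0.0980). H3K9ac peak length before the gene was 44.0% of vehicle and H3K27ac peak length 76.8% of vehicle, with both TGF-beta libraries below both vehicle libraries in each mark. No group had 4 libraries, so single libraries were not compared with the rest of their group.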

How the results depend on the processing

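MUC6 was lower with TGF-beta in every target under every setting run, and the size moved with the scale. In SMAD3 it was -1.76 with the gene span alone, -4.90 and -1.59 with pseudocounts of 100 and 2000 bp, -2.83 without centring and -2.85 with equal peak numbers. In H3K27ac it was -3.02 with the span alone, -1.98 with 25 kb, -1.94 and -1.35 with 100 and 2000 bp, -1.68 without centring, -1.73 with scores of at least 5 and -1.71 with equal peak numbers. In H3K9ac it was -2.07 with the span alone, -2.82 and -1.61 with 100 and 2000 bp and -2.58 with scores of at least 5. The MUC6 difference of the marks was 0.95 with the span alone, the opposite sign, -0.49 with 25 kb, -0.88 and -0.26 with 100 and 2000 bp, -0.81 without centring and -0.85 with scores of at least 5; leaving out 1 library gave -0.77 to -0.49.

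MUC5B in H3K27ac lost its call without centring (-0.27) and with the trend and robust options of limma (-0.35), and single libraries left out gave -0.43 to -0.28. MUC5AC in H3K27ac ran from -0.43 to -0.41 when 1 library was left out, and lost its call without TGF-beta replicate 2. MUC2 in H3K9ac ran from -1.08 to -0.53 with 1 library left out, in the fits where it passed the filter. Without vehicle replicate 2 and with scores of at least 5 it fell below the filter. With 25 kb it gained a call (-1.15). That wider window takes in the stretch at LINC02688, where H3K9ac went to 0 with TGF-beta. MUC5B in H3K9ac gained a call with scores of at least 5 (-0.50) and with equal peak numbers (-0.34). The MUC5AC difference of the marks was -0.98 with scores of at least 5, and lost its call with 2000 bp (-0.21) and without any 1 library (-0.45 to -0.40). The MUC2 difference turned to -0.18 with 100 bp and -0.11 without centring, and ran from -0.28 to 0.44 with 1 library left out, being -0.06 without H3K27ac vehicle replicate 2 and -0.12 without H3K9ac TGF-beta replicate 1. The MUC5B difference turned to -0.090 without centring, -0.13 with scores of at least 5 and -0.012 with equal peak numbers. Beyond the peaks that the 25 kb window adds at MUC2, the cause was not tested for any of these.

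Deviations of same-numbered libraries correlated at -0.07 in SMAD3, -0.02 in H3K27ac and -0.14 in H3K9ac, so no pairing by number was seen in peak length. With 2 libraries per group this cannot show whether same-numbered libraries shared a culture. With a replicate block MUC2 in H3K9ac gained a call (-0.73, adjusted p = 0.0381, limma), the MUC5AC difference was at -0.42 (adjusted p = 0.0503, limma), CREB3L1 in H3K9ac lost its call (adjusted p = 0.0524, limma), and no other call of a member or named gene changed. Genes called with the block were 1409, 3685, 1525 and 938 in SMAD3, H3K27ac, H3K9ac and the difference. With the pairs of H3K9ac crossed, a fit added after seeing the data, 1433 genes were called.

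Genes called in SMAD3 (1579) numbered 868 with the span alone, 715 with equal peak numbers and 792 to 1744 with 1 library left out, the lowest without vehicle replicate 4. In H3K27ac (3670) leaving out 1 library gave 1980 to 3142, the lowest without TGF-beta replicate 2. In H3K9ac (1383) they numbered 557 without centring and 730 to 1402 with 1 library left out, the lowest without TGF-beta replicate 1. For the difference (1075) the range was 495 to 969, the lowest without H3K9ac TGF-beta replicate 1. Without centring the median change of all genes was 0.29 in SMAD3, 0.06 in H3K27ac, -0.09 in H3K9ac and -0.16 in the difference. The split of higher against lower calls then went from 1403 and 176 to 1825 and 11 in SMAD3, from 2074 and 1596 to 2507 and 880 in H3K27ac, and from 612 and 771 to 180 and 377 in H3K9ac. Of the 51 mucin pathway genes, the number that fell in H3K9ac (3) was 0 with a pseudocount of 100 bp, 1 without centring, 2 with no filter or equal peak numbers and 5 with 2000 bp. The number that fell in H3K27ac (5) was 3 with the gene span alone and 7 with 25 kb or a replicate block, and the number that rose in SMAD3 (3) was 5 with no filter, where 2 fell.

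Lost H3K27ac regions of the cluster (8) were 5 with scores of at least 5 and 8 to 13 with 1 library left out, the highest without vehicle replicate 2. The whole-cluster H3K27ac loss of -9.33 kb was -8.48 kb with scores of at least 5 and -9.12 kb with equal peak numbers, and the H3K9ac loss of -9.31 kb was -9.96 kb with scores of at least 5. Peak lists without read counts do not show how depth limited a call.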
